A study of Mus musculus with 16 samples.

Results

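The cyclins that drive the cell cycle, and the kinase that the mitotic ones activate, were followed through maps of 2 histone marks in mouse embryos at the late 2-cell stage. The members are given by symbol: Ccna1, Ccna2, Ccnb1, Ccnb2, Ccnd1, Ccnd2, Ccnd3, Ccne1, Ccne2 and Cdk1. All 10 were found among 21887 protein-coding genes of the RefSeq gene table of GRCm38 (mm10) on chromosomes 1 to 19, X and Y. Control zygotes received H2O and mutant zygotes received Hdac1 mutant mRNA, and both were collected 36 h after fertilization. The labels do not name the mutation or the strain, and the mRNA was added to embryos for which no change of their own Hdac1 gene is described. H3K27ac and H3K4me3 were profiled by native chromatin immunoprecipitation from very few cells, with 2 immunoprecipitation and 2 input libraries for each mark and condition. Each mark and condition is represented by 1 deposited peak list, so there is no replicate error, no test of the conditions, and an unknown sequencing depth. Every difference below is a difference between 2 lists.

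Cyclins are short-lived activating subunits of cyclin-dependent kinases. D cyclins act with Cdk4 and Cdk6 early in G1, E cyclins with Cdk2 at the start of DNA replication, A cyclins during replication and entry into mitosis, and B cyclins with Cdk1 in mitosis. Cleaving embryos begin with large maternal stores of these products, and maternal mRNA is replaced by embryonic transcripts at the 2-cell stage in mice. H3K4me3 is a mark of promoters and H3K27ac a mark of active promoters and enhancers. Hdac1 removes acetyl groups from histones.

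The 4 lists held between 77349 and 122487 peaks that covered between 245.9 and 279.4 Mb, and neighbouring peaks were separated by at least 602 bp in one list and at least 734 bp in another. As a check of the labelled stage, all 6 listed 2-cell genes, among them Zscan4d and Zfp352, had H3K27ac at a gene end in both conditions, and H3K4me3 was found at 5 and 6 of them in control and mutant. Of 6 genes of cumulus and follicle cells, 2 in control and 4 in mutant had H3K27ac, and 4 and 5 had H3K4me3. Of all protein-coding genes, 54.8% in control and 58.0% in mutant had H3K27ac at an end, and 74.7% and 72.9% had H3K4me3. Beside such shares these few genes are a weak check, above all for H3K4me3. A peak is not a measure of expression, and the part of other cells in the results was not tested.

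For 6 of the members the RefSeq promoter table of GRCm38.p6 gives a start site, which tells the promoter end of the gene from its other end. The following promoters are shown because H3K27ac was absent around the first pair of starts in the mutant list and present around the other pair, while H3K4me3 lay within 2 kb of all 4. Each run holds the 250 bases before the start, on the minus strand, and is printed 5′ to 3′. The positions are chr10:69352913-69353162 for Cdk1, chr9:70421555-70421804 for Ccnb2, chr13:100786487-100786736 for Ccnb1 and chr7:38107491-38107740 for Ccne1. Capitals mark CCAAT or its reverse complement ATTGG on the printed strand, then TTTGAA or its reverse complement TTCAAA on that strand, and last TTCGCGC or the like form TTGGCGC with the reverse complements GCGCGAA for the former and GCGCCAA for the latter.
Cdk1: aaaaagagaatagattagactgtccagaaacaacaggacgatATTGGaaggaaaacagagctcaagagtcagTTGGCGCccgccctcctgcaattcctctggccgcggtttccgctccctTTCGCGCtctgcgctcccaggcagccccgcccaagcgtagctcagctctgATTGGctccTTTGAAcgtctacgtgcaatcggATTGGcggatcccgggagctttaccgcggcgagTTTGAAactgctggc
Ccnb2: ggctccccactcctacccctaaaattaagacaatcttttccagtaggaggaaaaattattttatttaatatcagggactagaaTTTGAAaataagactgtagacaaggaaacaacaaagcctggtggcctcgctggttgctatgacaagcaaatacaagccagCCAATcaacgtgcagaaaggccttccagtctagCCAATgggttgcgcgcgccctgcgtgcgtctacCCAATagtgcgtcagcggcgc
Ccnb1: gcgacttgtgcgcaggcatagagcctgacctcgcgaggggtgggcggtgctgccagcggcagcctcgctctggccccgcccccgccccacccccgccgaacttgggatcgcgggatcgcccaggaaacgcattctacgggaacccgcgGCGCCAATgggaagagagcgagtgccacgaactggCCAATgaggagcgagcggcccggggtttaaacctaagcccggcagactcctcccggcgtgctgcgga
Ccne1: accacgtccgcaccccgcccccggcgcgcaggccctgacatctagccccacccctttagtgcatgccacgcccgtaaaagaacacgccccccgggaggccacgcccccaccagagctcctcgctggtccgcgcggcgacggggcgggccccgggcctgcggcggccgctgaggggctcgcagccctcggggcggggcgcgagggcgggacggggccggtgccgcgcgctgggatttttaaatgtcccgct

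CCAAT is the core of the site bound by NF-Y, TTTGAA is the core of the cell cycle homology region of mitotic promoters, and TTCGCGC and TTGGCGC are forms of the E2F site. Searched on both strands, the Cdk1 promoter held 3 CCAAT, 2 TTTGAA and 2 E2F letter matches. Ccnb2 held 3 CCAAT and 1 TTTGAA match. Ccnb1 held 2 CCAAT matches and 1 E2F match, the first CCAAT sharing letters with the E2F match, and Ccne1 held none of these. TATAAA or TTTATA was found in none of the 4. Among 21263 start sites of protein-coding genes, 35.4% held CCAAT, 14.5% TTTGAA, 4.05% an E2F form and 11.6% TATAAA in the same 250 bases. These are matches of letters only. GC made up 76.0% of the Ccne1 run, 69.6% of Ccnb1, 56.4% of Cdk1 and 47.6% of Ccnb2.

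At the level of whole genes, none of the members changed state. A gene was counted as marked when a peak touched a window of 2 kb on each side of either of its ends. H3K4me3 marked all 10 genes in both conditions, where 74.7% of protein-coding genes were marked in control and 72.9% in mutant. H3K27ac marked 9 of 10 in both conditions, against 54.8% and 58.0% of protein-coding genes. The gene without H3K27ac was Ccna1 in each list. No member lost or gained a mark, against 12.5% of protein-coding genes that lost and 15.6% that gained H3K27ac, and 6.68% that lost and 4.85% that gained H3K4me3. Counted only over genes with a control peak to lose, 22.7% lost H3K27ac and 8.94% lost H3K4me3, while 34.6% and 19.2% of the genes without one gained it. With lists of equal size, which drops narrow mutant peaks, 1 member lost H3K27ac. Both marks lay at the ends of 9 members in each condition, against 50.9% and 51.5% of protein-coding genes.

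The extent of the marks differed between the lists. H3K27ac covered 44901 of the 80020 bases in the members' windows in control and 35030 in mutant, a ratio of 0.78. Over all protein-coding genes this ratio was 0.86. Fewer bases were covered in mutant at 7 members, more at 1 and equally many at 2, where 37.1% of protein-coding genes had fewer and 32.1% had more. Of these 21887 genes, 6463 had no H3K27ac at an end in either list and could only be equal. H3K4me3 covered 43254 bases in control and 46293 in mutant, a ratio of 1.07 beside 1.03 over all protein-coding genes, but 0.8995 for the starts of the 6 genes with a listed start site. It covered fewer bases at 3 members, more at 6 and equally many at 1, against 32.6% and 41.6% of protein-coding genes with fewer and more. Here 4475 protein-coding genes had no H3K4me3 at an end in either list. Bases under both marks made up 77.5% of the members' H3K4me3 bases in control and 59.1% in mutant, and 52.5% and 39.6% over all protein-coding genes.

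**Figure D1:**
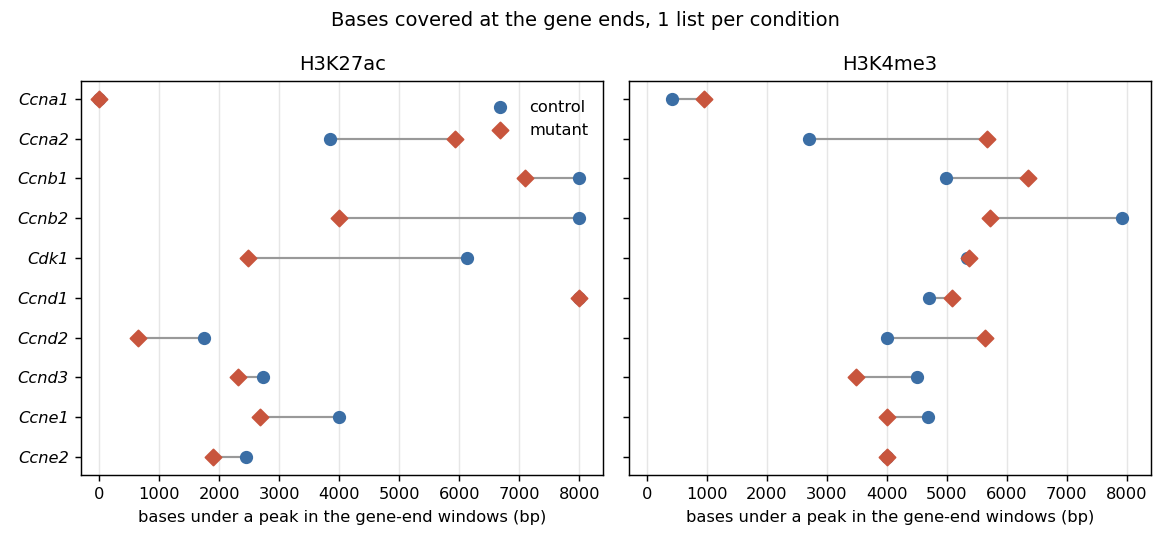
Bases under a peak in the gene-end windows of each gene (horizontal axis, bp, of 8002 possible), for H3K27ac on the left and H3K4me3 on the right. Circles are the control list and diamonds the mutant list. For H3K27ac the longest leftward lines are those of Ccnb2 (8002 to 4001 bp) and Cdk1 (6124 to 2471 bp), and only Ccna2 lies further right in mutant. Where only a diamond shows, both values coincide.

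At the start sites H3K27ac was absent from Cdk1 and Ccnb2 in the mutant list. The 6 genes of the promoter table have 7 listed starts. H3K27ac lay within 2 kb of 5 of these in control and 4 in mutant, with 2 lost and 1 gained. Over all listed starts of protein-coding genes, 45.9% had H3K27ac in control and 45.1% in mutant, 16.1% lost it and 15.2% gained it. Of the starts marked in control 35.0% lost it, beside 2 of 5 member starts, and of the unmarked starts 28.1% gained it, beside 1 of 2. H3K4me3 lay within 2 kb of all 7 starts in both conditions, with 0 lost and 0 gained, where 71.7% of starts were marked in control, 68.1% in mutant, 8.33% lost and 4.80% gained. Of the member starts, 4 lay under both marks in control and under H3K4me3 in mutant, and 2 of them had no H3K27ac in mutant. Among starts of this kind in all protein-coding genes, 48.5% of 6524 had none, so the members' share is near the background.

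Cdk1, the catalytic partner of the A and B cyclins, lies on chromosome 10 from 69335146 to 69352912 with its start at the higher position. In control, an H3K27ac peak of 7967 bp (69347373 to 69355339) covered all 4001 bp of the window around the start. The mutant list held no base of H3K27ac in that window, and its nearest H3K27ac peak was 15001 bp from the start. At the other end of the gene H3K27ac covered 2123 bp in control and 2471 bp in mutant, so the gene as a whole still counted as marked. H3K27ac covered 51.8% of the gene in control and 2.65% in mutant. A larger drop in that share was seen in 5.56% of protein-coding genes. Only genes with more control coverage than that drop could exceed it, and the median control coverage over all protein-coding genes was 4.89%.

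H3K4me3 stayed at the Cdk1 start in both lists, with all 4001 bp of the window covered. The peak over the start was 28694 bp wide in control and 10807 bp wide in mutant. Within the span of that control peak the mutant list held 5 peaks that covered 85.2% of it. H3K4me3 covered 31.4% of the Cdk1 gene in control and 48.1% in mutant. The widest H3K27ac peak reaching either end was wider in mutant (18324 bp) than in control (7967 bp), the only such case among the members with a peak. It lies at the end away from the start, and the order turned when gaps under 1 kb were joined, with 27804 bp in control and 19878 bp in mutant.

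Ccnb2, a B cyclin that binds Cdk1, lies on chromosome 9 from 70407689 to 70421554 with its start at the higher position. The control H3K27ac list had a peak of 8781 bp over the start and one of 9008 bp over the other end, each filling its window of 4001 bp. In mutant the peak at the other end was present, at 6743 bp and again with 4001 bp of the window covered. The start window held 0 bp, and the nearest mutant H3K27ac peak was 4372 bp away. H3K27ac covered 70.0% of the gene in control and 17.3% in mutant, a drop exceeded in 4.92% of protein-coding genes. Genes with less control coverage than such a drop needs are part of the total here as well. H3K4me3 covered 3918 bp of the start window in control and 2447 bp in mutant, under peaks of 4878 and 3877 bp. Ccnb2 was thus the member with the largest differences of both marks towards fewer bases at the gene ends.

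Ccnb1, the main mitotic cyclin, lies on chromosome 13 from 100778739 to 100786486. A single control H3K27ac peak of 46475 bp (100769605 to 100816079) covered the whole gene and reached ends of its neighbours Cenph, a kinetochore protein gene, and Slc30a5, a zinc transporter gene. It was wider than the widest control H3K27ac peak of 98.8% of protein-coding genes, with genes that had no peak counted as 0 bp. A control H3K27ac peak lay at an end of 54.8% of protein-coding genes. The mutant list held 7 peaks over the same stretch, which covered 65.4% of it, and the widest mutant peak at the gene measured 10375 bp. The window around the start was fully covered in both lists, with 4001 bp each. When gaps under 1 kb were joined, the mutant peak at the gene still measured no more than 18753 bp beside 48281 bp in control.

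H3K4me3 at Ccnb1 covered 4001 bp of the start window in control and 3102 bp in mutant. The mutant list had a gap between 2 peaks at the start site itself, with the nearer one 29 bp away. It was the only member start with an H3K4me3 peak over it in control and none in mutant, where 8.02% of all starts showed this. Once gaps under 1 kb were joined, a mutant peak of 33899 bp lay over the start, and no such absence was left. At the other end H3K4me3 covered 985 bp in control and 3258 bp in mutant. Mice carry processed copies of Ccnb1, and how reads shared with such copies were placed is not given in the sources used here.

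**Figure D2:**
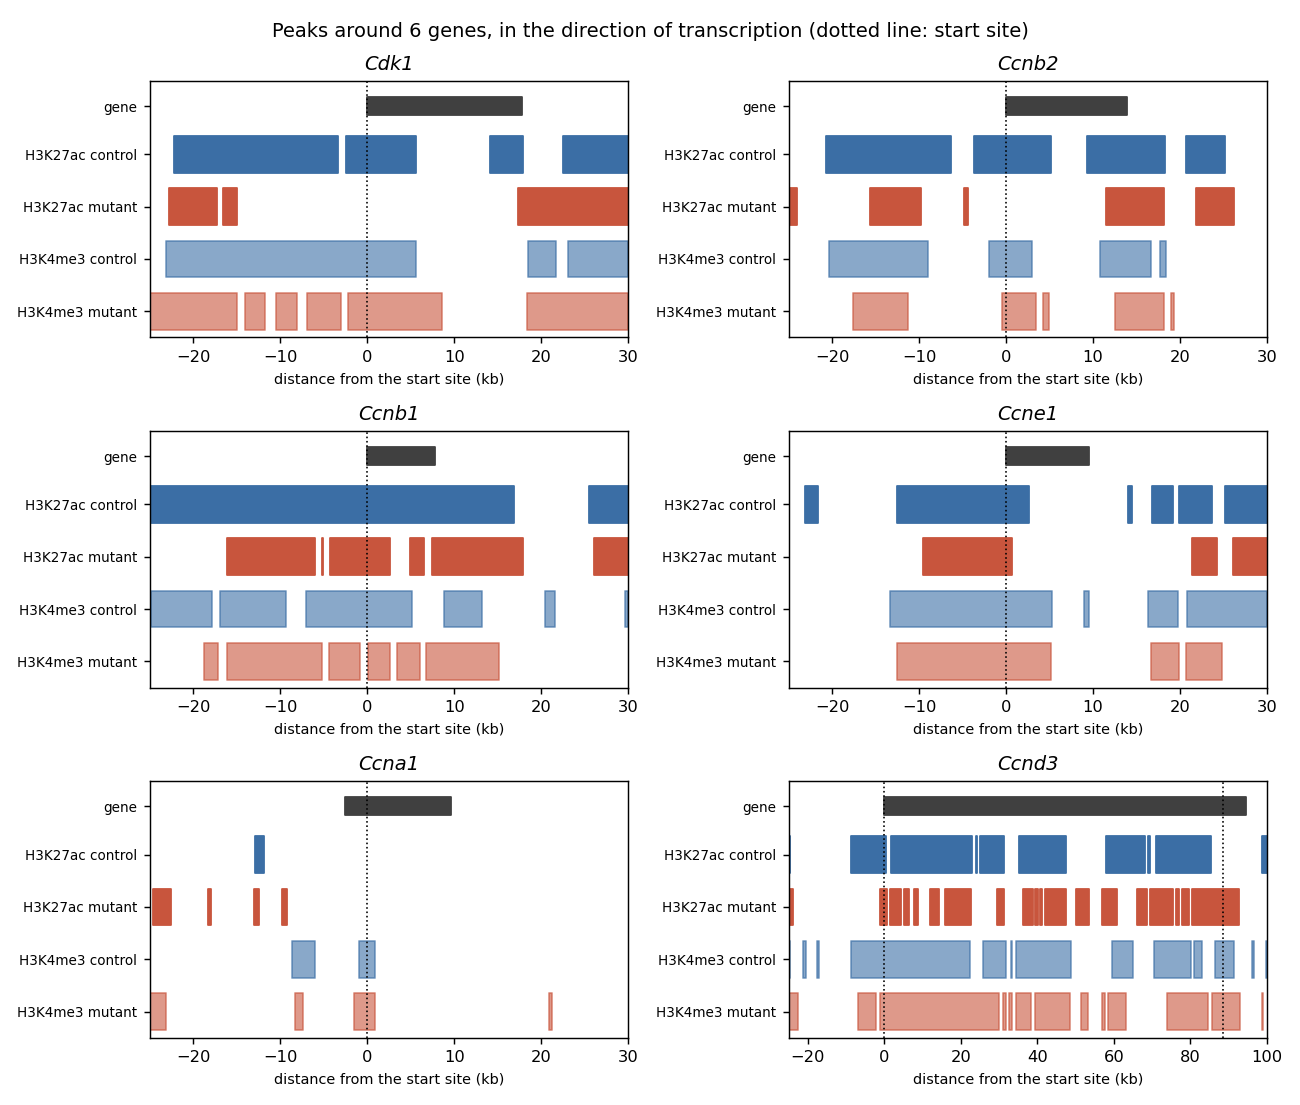
Peaks of each list (rows) around the 6 genes with a listed start site, drawn to scale along the direction of transcription, with distance from the start in kb on the horizontal axis. Dark bars are H3K27ac and light bars H3K4me3, blue for control and red for mutant, the gene is the bar on top and dotted lines mark starts. At Cdk1 and Ccnb2 the red H3K27ac row is empty at the start, with the nearest peak at 15001 and 4372 bp, whereas at Ccnb1 and Ccne1 it is filled.

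The A cyclins differed from each other in both marks. Ccna2, the A cyclin of somatic cells, lies on chromosome 3 from 36564865 to 36573038 and has the coding genes Exosc9 and Bbs7 within the windows of its ends, so their marks cannot be told apart. H3K27ac covered 3843 bp at its ends in control and 5931 bp in mutant. H3K4me3 covered 2701 bp in control and 5671 bp in mutant. Ccna2 was the only member with more H3K27ac bases at its ends in mutant, and it had the largest difference towards more H3K4me3 bases. Most of the difference lay at the lower end, shared with Exosc9, an exosome subunit gene. There H3K27ac covered 335 bp in control and 1950 bp in mutant, and H3K4me3 covered 0 and 2002 bp. At the end shared with Bbs7, a gene of the ciliary BBSome, H3K27ac covered 3508 and 3981 bp and H3K4me3 2701 and 3669 bp.

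Ccna1, the A cyclin needed in male germ cells, lies on chromosome 3 from 55045469 to 55057634. Its listed start, at 55055055, lies inside the outermost end of the gene. Neither H3K27ac list had a peak within 2 kb of the start or of a gene end. The nearest H3K27ac peak was 11905 bp from the start in control and 9277 bp in mutant. H3K4me3 was present as a narrow peak over the start, of 1830 bp in control and 2395 bp in mutant. Only 420 bp in control and 952 bp in mutant of these peaks lay in the gene-end windows, so Ccna1 counted as marked through the edge of a promoter peak. The lncRNA gene 4931419H13Rik begins at 55055242, close to the same start. Both Ccna1 peaks were narrower than the widest H3K4me3 peak of any other member in the same list.

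The E cyclins had H3K27ac at 1 end each. Ccne1, which lies on chromosome 7 from 38097984 to 38107490, had an H3K27ac peak of 15136 bp over its start in control and one of 10217 bp in mutant. The start window was covered for 4001 bp in control and 2678 bp in mutant. The mutant peak reached less far into the gene, so that 27.3% of Ccne1 was covered in control and 7.13% in mutant. H3K4me3 filled the start window in both lists with 4001 bp, under peaks of 18579 and 17807 bp. These domains were wider than the widest H3K4me3 peak of 93.5% of protein-coding genes in control and 91.8% in mutant. Genes with no peak counted as 0 bp, and 74.7% of protein-coding genes had one in control and 72.9% in mutant. A small H3K4me3 peak of 682 bp at the other end of Ccne1 in control was missing from the mutant list.

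Ccne2 lies on chromosome 4 from 11190433 to 11204779, and its start is not in the promoter table. All its peaks at gene ends lay at the lower end, where the lncRNA gene A630034I12Rik overlaps. H3K27ac had 2 narrow peaks there in control, with 2452 bp covered, and 1 in mutant, with 1887 bp. The wider control peak, of 2440 bp, had 0% of its span covered in mutant. H3K4me3 filled the window in both lists with 4001 bp, and its peak was 6443 bp wide in control and 10127 bp in mutant. H3K4me3 covered 22.8% of the Ccne2 gene in control and 48.2% in mutant, whereas H3K27ac covered 19.6% and 6.27%. The 2 marks thus differed in opposite directions within this gene.

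The D cyclins connect growth signals to Cdk4 and Cdk6, and all 3 had marks at an end. Ccnd1, on chromosome 7 from 144929931 to 144939831, was the only member besides Ccnb1 and Ccnb2 with H3K27ac over every base of both windows in control. It kept all 8002 bp in mutant, which neither B cyclin did. H3K27ac covered 53.1% of the gene in control and 80.7% in mutant, the largest difference towards more among the members. H3K4me3 covered 4706 bp at its ends in control and 5090 bp in mutant. The lower end overlaps the neighbouring coding gene LTO1, so the marks of that end cannot be assigned to Ccnd1 alone.

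Ccnd2 lies on chromosome 6 from 127125162 to 127152188. In control, an H3K27ac peak of 20135 bp that also covers an end of Tigar stopped 262 bp short of the lower end of Ccnd2. In mutant, 2 peaks covered 65.0% of that stretch, but at Ccnd2 the window held a single peak of 650 bp. H3K27ac therefore covered 1739 bp at the ends in control and 650 bp in mutant, all of it at the lower end. H3K4me3 filled the window at the higher end in both lists with 4001 bp. It reached the window of the lower end in mutant alone, with 1640 bp, stopping 361 bp short of the end itself. The lncRNA gene 9330179D12Rik overlaps the window of the higher end, and the start of Ccnd2 is not in the promoter table. Ccnd2 had no base under both marks at its ends in control and 57 bp in mutant.

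Ccnd3 is the longest member, with 94639 bp on chromosome 17 from 47505051 to 47599689, and has 2 listed starts. At the outer start H3K27ac covered 2736 bp of the window in control and 2307 bp in mutant, and H3K4me3 4001 and 3208 bp. The inner start, at 47593467, lay under an H3K27ac peak of 12131 bp in mutant and had none within 2 kb in control, the nearest being 2921 bp away. It is the 1 member start that gained H3K27ac. Across the gene there were 8 H3K27ac peaks in control and 18 in mutant, which covered 69.5% and 60.5% of it. Once gaps under 1 kb were joined, the peaks numbered 6 in control and 9 in mutant. The H3K4me3 domain over the outer start was nearly equal in the lists, 31120 and 31128 bp wide in control and mutant. It was wider than the widest peak of 98.4% and 98.7% of protein-coding genes, with genes that had no peak counted as 0 bp. The widest H3K27ac peak at the ends of Ccnd3 had 12131 bp in mutant beside 21083 bp in control, but 26709 beside 21083 bp once gaps under 1 kb were joined.

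**Figure D3:**
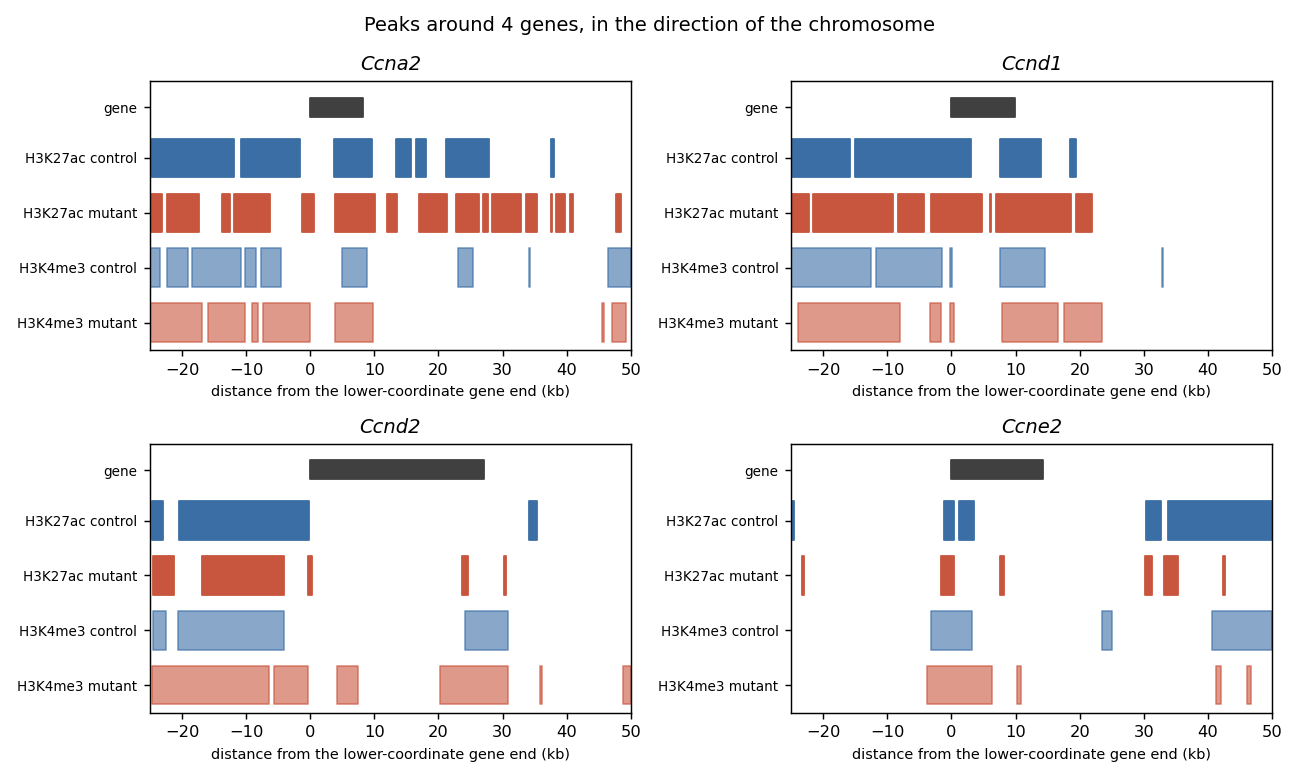
Peaks of each list (rows) around the 4 genes without a listed start site, drawn to scale along the chromosome, with distance from the lower-coordinate gene end in kb on the horizontal axis. Dark bars are H3K27ac and light bars H3K4me3, blue for control and red for mutant, and the gene is the bar on top. Ccnd1 has H3K27ac over both ends in both conditions, whereas at Ccnd2 the control block of 20135 bp stops 262 bp short of the gene.

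At 8 of the 9 members with H3K27ac the mutant list had the narrower widest peak at a gene end, where 67.2% of protein-coding genes with a peak in both lists showed this. The ratio of widths, mutant to control, lay between 0.0323 at Ccnd2 and 0.773 at Ccne2 for these 8 genes and was 2.30 at Cdk1. At Ccna2, Ccnd1, Ccnd3 and Cdk1 these are peaks at different ends of the gene, and at the higher end of Ccnd1 the order was opposite, with 6343 bp in control and 11713 bp in mutant. The ratios depended on the window as well. With windows of 5 kb, which take in a mutant peak of 12927 bp, Ccnd2 had 0.642, and Cdk1 had 0.743. With windows of 1 kb the ratio was 0.187 at Ccnd3 and 1.04 at Ccna2, and Ccne2 had 1567 bp in control and 1887 bp in mutant. Joining gaps under 1 kb moved Ccne2 to 0.397, with 4753 bp in control and 1887 bp in mutant. It turned Ccnd1 to a wider mutant peak, with 29018 bp in control and 32754 bp in mutant, as it did Ccnd3, and turned Cdk1 to a narrower one. The widest H3K4me3 peak was narrower at 5 of 10 members, against 37.4% of protein-coding genes, with ratios from 0.688 at Ccnb1 to 1.85 at Ccna2. Joining gaps under 1 kb turned the order at Ccnb1, to 12159 bp in control and 33899 bp in mutant, a ratio of 2.79. It also moved the ratio to 3.64 at Ccnd2. The ratio of 0.853 at Ccnd1 became 0.656 with the same joining, and 0.37 with gaps under 750 bp joined and peaks under 200 bp dropped. The window mattered too, with 0.639 at Ccnd2 and 0.894 at Ccna1 for windows of 5 kb and 1.27 at Ccnd1 for windows of 1 kb. At Ccna2, Ccnb1, Ccnd1 and Cdk1 the widest H3K4me3 peaks of the 2 lists lay at different ends. Within the span of a member's widest control H3K27ac peak, the mutant list covered a median of 65.4%, beside 43.6% over all protein-coding genes. At Cdk1 and Ccne2 it covered none. For H3K4me3 these medians were 93.9% and 87.5%.

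**Figure D4:**
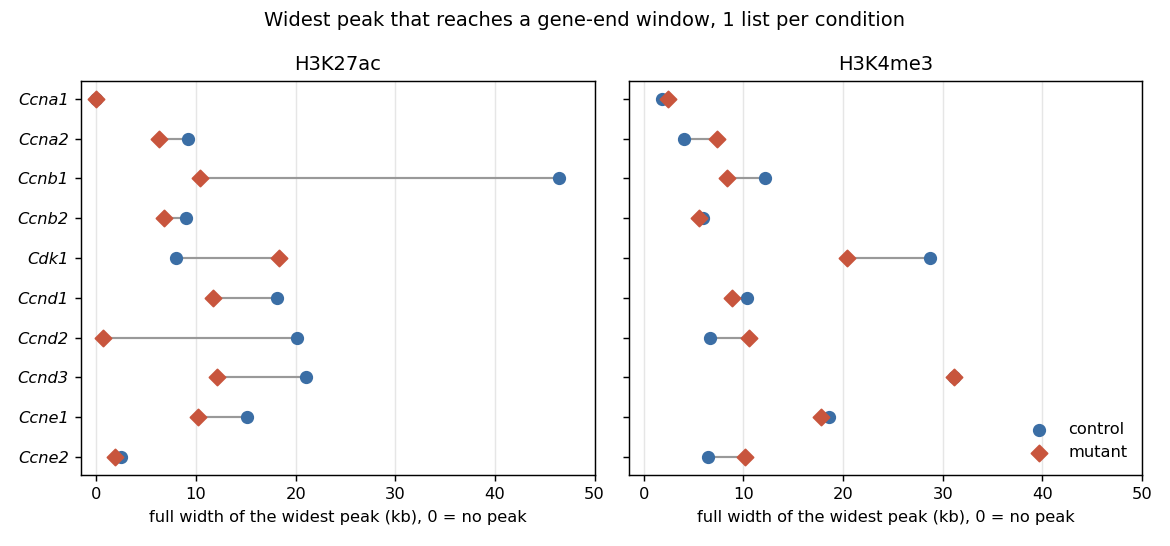
Full width of the widest peak that reaches a gene-end window (horizontal axis, kb; 0 where there is none), for H3K27ac on the left and H3K4me3 on the right. Circles are the control list and diamonds the mutant list. The control H3K27ac peak of Ccnb1, 46475 bp, stands farthest right, and in the lists as deposited Cdk1 is the only gene with a wider H3K27ac peak in mutant, an order that turned when gaps under 1 kb were joined or windows of 5 kb were used.

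Measured over whole genes, from one gene end to the other, the members' median H3K27ac coverage was 52.5% in control and 12.2% in mutant, beside 4.89% and 6.68% over all protein-coding genes. The share was lower by 10 percentage points or more at 5 members, Ccnb1, Ccnb2, Ccne1, Ccne2 and Cdk1, and higher by as much at Ccnd1. Of all protein-coding genes, 23.0% were lower by as much and 15.2% higher. Genes with less than 10% covered in control cannot fall by that much but are part of these shares. The median H3K4me3 coverage was 35.8% in control and 48.2% in mutant, beside 13.2% and 14.7%. It was higher by 10 points or more at 5 members, Ccna2, Ccnb1, Ccnd2, Ccne2 and Cdk1, and lower by as much at 0, against 19.7% and 15.0% of protein-coding genes. At Ccnb1, Ccne2 and Cdk1 the 2 marks differed by 10 points or more in opposite directions, with less H3K27ac and more H3K4me3, as did 4.9% of protein-coding genes. That share again includes genes with too little control H3K27ac to fall so far.

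The members were set beside 95 other cell cycle genes in 4 lists, all of which were matched. H3K27ac lay at an end of 77 of these genes in control and of 78 in mutant, beside 54.8% and 58.0% of protein-coding genes. It was lost at 12 and gained at 13. These are 12.6% and 13.7% of the 95, near the 12.5% and 15.6% over all protein-coding genes. The losses are 15.6% of the 77 marked genes, beside 22.7% over all protein-coding genes marked in control. The gains are 72.2% of the 18 unmarked genes, beside 34.6%. H3K4me3 marked 93 in control and 92 in mutant, beside 74.7% and 72.9% of protein-coding genes. H3K27ac covered 0.692 times as many bases at their ends in mutant as in control, beside 0.78 for the members and 0.86 over all protein-coding genes. The ratio was 0.515 for 33 genes of mitotic entry and exit, 0.651 for 13 cyclin-dependent kinases and partners, 0.87 for 32 genes of the G1/S step and the E2F-RB network, and 0.996 for 17 other cyclins. Which of these lists differ from one another was not tested.

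Among the genes of mitotic entry and exit, 32 of 33 had H3K27ac in control and 27 in mutant, beside 54.8% and 58.0% of protein-coding genes. The 6 that lost it, 18.8% of the marked genes beside the 22.7% over all protein-coding genes, were Anapc11, Arpp19, Cdc27, Fzr1, Mad2l1 and Ube2c. Anapc11 and Cdc27 encode subunits of the anaphase-promoting complex, and its other listed subunits Anapc1, Anapc2, Anapc10, Cdc16, Cdc23 and Cdc26 had H3K27ac in both lists. Arpp19 is a phosphatase regulator and Mad2l1 a spindle checkpoint gene. At Anapc11 H3K27ac covered all 8002 bp in control and 0 bp in mutant, with H3K4me3 over 4001 bp in both. Mad2l1 had 7118 and 0 bp of H3K27ac. Cdc25b, a phosphatase that activates Cdk1, had 8002 bp in control and 813 bp in mutant. The spindle checkpoint kinase gene Ttk gained H3K27ac, with 504 bp in mutant. The largest differences towards more bases were at Bub1b (2171 and 4573 bp), another checkpoint kinase gene, and Wee2 (462 and 1583 bp), an oocyte kinase that inhibits Cdk1. Aurkc, a meiotic Aurora kinase, lost H3K4me3, with 3840 bp in control and 0 bp in mutant.

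Of the 13 kinases and partners, Cdk4, Cdk13 and Cks1b lost H3K27ac and Cdk6 and Mnat1 gained it. That is 3 of the 10 marked in control and 2 of the 3 unmarked, few genes to set beside the 22.7% and 34.6% over all protein-coding genes. Cdk4, a partner of the D cyclins, had 5688 bp in control and 0 bp in mutant, while H3K4me3 covered 7070 and 7754 bp. Cdk6, the other partner of the D cyclins, had 0 and 499 bp of H3K27ac. Cks1b, a small subunit of Cdk complexes, had 4121 and 0 bp, and its widest H3K4me3 peak had 14884 bp in control and 35982 bp in mutant. Mnat1, which assembles the Cdk-activating kinase, had 0 and 3243 bp. Cdk5, which acts mainly in neurons, had no H3K27ac at its ends in either list.

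Of the 32 genes of the G1/S step and the E2F-RB network, 22 had H3K27ac in control and 26 in mutant, beside 54.8% and 58.0% of protein-coding genes. Of the 22, 9.09% lost it, beside 22.7%, namely Cul1, the scaffold of a ubiquitin ligase, and Lin37, a subunit of the DREAM complex. The 6 that gained it, of 10 without a control peak and beside the 34.6% over all protein-coding genes, were E2f2, E2f3, E2f5, E2f6, Rb1 and Rbl2, with from 353 bp at E2f3 to 4001 bp at E2f2 in mutant. E2f1, E2f7 and Rbl1 had H3K27ac in both lists, and E2f4, E2f8, Fbxw7 and Tfdp1 in neither. Mybl2, a transcription factor of mitotic genes, had 8002 and 1901 bp, and Mcm7, a subunit of the replicative helicase, 6332 and 604 bp. Skp1, a ubiquitin ligase subunit, had 2028 and 4542 bp. Skp2, an F-box protein that directs the breakdown of Cdk inhibitors, had no H3K4me3 at its ends in either list.

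Among the other cyclins, 13 of 17 had H3K27ac in control and 16 in mutant, beside 54.8% and 58.0% of protein-coding genes. The 1 loss among 13 marked genes and the 4 gains among 4 unmarked stand beside 22.7% and 34.6%. Ccnt2, a cyclin of transcription elongation, lost it, with 2392 bp in control, while Ccng2, Ccnj, Ccnjl and Ccny gained it, with 257 to 2477 bp in mutant. Ccnl2, a cyclin linked to splicing, had 6501 and 2001 bp. Ccnc, a Mediator kinase cyclin, had 3630 and 6580 bp, and Cntd1, a meiotic cyclin-like gene, 2403 and 6911 bp. Ccnb3, a meiotic B-type cyclin on the X chromosome, had no H3K4me3 in either list and 2652 and 630 bp of H3K27ac. It was thus unlike Ccnb1 and Ccnb2, which had H3K4me3 at both ends in both lists.

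**Figure D5:**
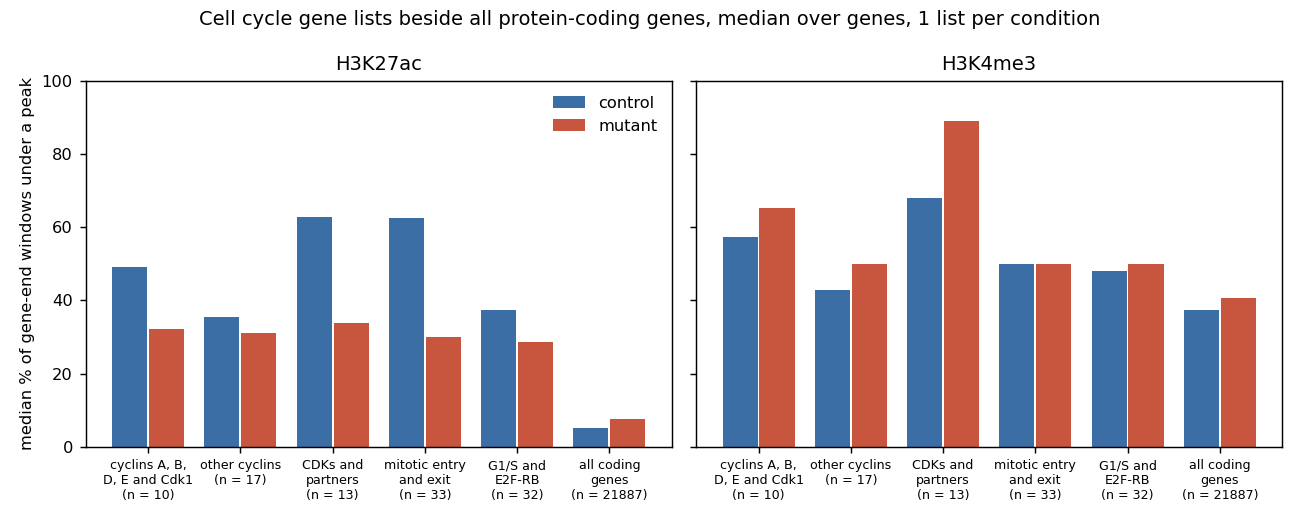
Median percentage of the gene-end windows under a peak (vertical axis) for the cyclins A, B, D and E with Cdk1, for 4 lists of other cell cycle genes and for all protein-coding genes, with the number of genes under each name. Blue bars are the control list and red bars the mutant list, H3K27ac on the left and H3K4me3 on the right. For H3K27ac the red bar is lower in each cell cycle list, for example 32.2% beside 49.01% for the cyclins with Cdk1, and higher over all protein-coding genes, at 7.51% beside 5.21%. The share of protein-coding genes with any H3K27ac was also higher in mutant, 58.0% beside 54.8%, whereas their covered bases were 0.86 times those in control.

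The genes whose coverage over the 4 lists was most like that of a member were Cdt1, a replication licensing factor gene, for Ccnd1, Ccnk, a cyclin of transcribing kinases, for Ccne2, and the checkpoint kinase gene Bub1 for Ccne1. The distances, over the 4 percentages of the windows covered, were 8.58, 10.9 and 13.7 percentage points. Cdt1, like Ccnd1, had its windows wholly under H3K27ac in both lists. The 4 lists are few points for such a likeness.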

How the data were processed

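H3K27ac and H3K4me3 were measured by native ChIP-seq in control and mutant late 2-cell embryos, in 16 libraries that form 8 groups by their titles. Per the labels, 1 peak list was deposited for both immunoprecipitation libraries of a group, and the submitters' processing notes name Bowtie2, Picard and MACS2 and the builds mm10 and GRCm38, without versions. Whether reads were pooled before calling is not given in the sources used here. The deposited columns hold positions only, a unit classed as other, with no score, fold or p-value. Read depth is therefore unknown, and no interval or replicate error could be given.

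Peaks on chromosomes 1 to 19, X and Y were read as BED intervals and printed 1-based. Windows reached 2 kb to each side of both ends of each gene (4001 bp per end), and an overlap of 1 bp counted. The number of peaks, the covered bases and the full width of the widest peak were computed per list, with Python 3.11.15 and pandas 2.3.3, and the overlap code was checked on simulated data. The gene table gives no strand. Start sites came from the promoter table, which holds 6 of the 10 members. Exons, introns and UTRs were not assigned. The members and the companion lists were chosen with earlier results of these data known. Companion genes are named where H3K4me3 was absent from at least one list, H3K27ac was lost or gained, or H3K27ac coverage differed most, 2 in each direction per list, and so are the genes closest to a member in coverage over the 4 lists. Genes without H3K27ac in either list, and the genes Anapc1, Anapc2, Anapc10, Cdc16, Cdc23, Cdc26, E2f1, E2f7 and Rbl1 with it in both, were added after their values were seen, and so were peak widths under other windows and joined gaps. The alternatives were other windows, joined gaps, wider peaks, lists of equal size and a larger overlap.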

Additional observations from a re-analysis of the deposited data

How the results depend on the processing

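No paired analysis was possible because the numbered libraries are not represented singly in the peak lists. For the same reason no replicate could be left out. Peaks carry no score for a stricter calling threshold, and the wider 50% of each list stands in its place. The main counts and ratios were recomputed under 8 settings. Of 110 values, 98 stayed within 1.5 times the reported value, 11 did not, and 1 ratio within that factor crossed 1 and was counted apart. Most of the rest came from the use of start sites alone, which leaves 6 genes. There H3K27ac marked 5 genes in control and 3 in mutant with 2 lost, H3K4me3 marked 6 in control and 6 in mutant, and both marks lay at 5 genes in control and 3 in mutant. At 3 of these genes the mutant list had the narrower widest H3K27ac peak, and the ratio of H3K4me3 bases turned from 1.07 to 0.8995. In the wider 50% of each list and in lists of equal size, the members that lost H3K27ac numbered 1 each instead of 0. With at least 500 bp of the window covered, 1 member gained H3K4me3. For the other settings the ratio of H3K27ac bases lay between 0.72 with windows of 5 kb and 0.864 with windows of 1 kb, and at start sites alone it was 0.693. The start of Cdk1 held 0 bp of mutant H3K27ac under each window and peak setting, a check chosen after the data had been seen. The start of Ccnb2 did so except with windows of 5 kb, where 501 bp were covered. How unlike limits on joining in the 4 lists bear on peak widths was not tested beyond these settings.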
